A study of Mus musculus with 18 samples.

Results

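The T cell receptor recognises antigen but has no signalling tail of its own, and its signal starts on the CD3 chains and the zeta chain that travel with it. The kinase Lck, brought close by the co-receptor CD4, phosphorylates these chains. The kinase ZAP-70 docks on them and phosphorylates the adaptor LAT, from which the calcium, diacylglycerol and Ras branches start, while CD5 restrains the signal. RNA of 9 genes of this module was followed: the chain genes Cd3d, Cd3e, Cd3g and Cd247 (zeta), the co-receptor gene Cd4, the kinase genes Lck and Zap70, the adaptor gene Lat and the inhibitory receptor gene Cd5. They were taken by symbol. All 9 were found among the 23284 symbols of the mouse tables and, in upper case, among the 25548 symbols of the eosinophil tables.

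The series holds 18 RNA sequencing libraries, 3 in each of 6 groups, labelled BALB/c. Memory T helper 2 (Th2) cells with high ST2, the IL-33 receptor, had spent 3 days in culture with IL-2 plus IL-33 (libraries 2, 4 and 6) or with IL-2 (libraries 1, 3 and 5), so both groups received IL-2. Eosinophils were cultured for 3 days with amphiregulin (libraries 2, 3 and 4) or without it (libraries 2, 3 and 4). Lungs of OVA-treated mice came from dGATA animals, labelled as knockouts (libraries 1, 2 and 3), or from wild-type animals (libraries 1, 2 and 3). What dGATA stands for is not spelled out in the labels, and the design text names HDM where the lung labels name OVA. Values are FPKM, that is fragments scaled by transcript length and by the mapped total of the library, so levels can be set side by side between genes. Nothing in the labels says whether libraries of a group came from separate cultures, animals or donors, so each p-value speaks only to how far the libraries at hand spread, which may be technical.

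The eosinophil tables carry human symbols and human coordinates. Their labels give mouse as the organism, and the values are described here as human. Relative depth ran from 0.67 to 1.34 in the Th2 libraries, from 0.36 to 1.0 in the eosinophil libraries and from 0.58 to 1.0 in the lung. The labelled cells showed their defining genes. Il1rl1, which encodes ST2, stood at 517, 515 and 506 FPKM with IL-33, against 57.9, 52.1 and 44.5 FPKM with IL-2. CLC, the gene of an abundant eosinophil protein, stood at 867, 1161 and 2620.4 FPKM with amphiregulin and at 1490.0, 1235 and 4483 FPKM without it. EPX, the eosinophil peroxidase gene, was low, at 23.6, 2.26 and 0.561 FPKM with amphiregulin and at 1.45, 0 and 0.552 FPKM without it.

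Cd3g, Cd3d and Cd3e lie side by side on mouse chromosome 9 (mm10), and the sequences around their starts are shown because these neighbours behaved differently in the Th2 cells. Cd3g covers chr9:44969572-44980431 on the minus strand, Cd3d covers chr9:44981786-44987052 on the plus strand and Cd3e covers chr9:44998743-45009590 on the minus strand. The starts of Cd3g and Cd3d are 1355 bases apart and point away from each other, and the start of Cd3e is 27804 bases from that of Cd3d. No other gene of the tables lies between them. The promoters of Lat (minus strand of chromosome 7) and Cd5 (minus strand of chromosome 19) are added because these genes were lower with IL-33. RefSeq windows on GRCm38.p6 run from 250 bases before to 50 bases after each RefSeq start and are written 5′ to 3′ on the gene's strand. They were found for 8 of the 9 genes, all but Cd4. For Cd3e and Lat the RefSeq start is not the start in the deposited gene coordinates. Capitals mark matches, on either strand, to 4 motifs. The E-box was searched as CAGNTG and the RUNX motif as TGTGGT. The letters for ETS factors were AGGAAG, and those for factors of the GATA family were GATAAG. No matches overlapped within these windows.
Cd3g, chr9:44980382-44980681, minus strand: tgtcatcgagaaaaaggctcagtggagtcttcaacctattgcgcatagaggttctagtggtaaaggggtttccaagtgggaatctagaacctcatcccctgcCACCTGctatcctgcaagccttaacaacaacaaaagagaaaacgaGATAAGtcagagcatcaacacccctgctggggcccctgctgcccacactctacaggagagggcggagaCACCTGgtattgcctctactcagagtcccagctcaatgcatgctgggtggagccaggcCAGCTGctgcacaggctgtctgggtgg
Cd3d, chr9:44981536-44981835, plus strand: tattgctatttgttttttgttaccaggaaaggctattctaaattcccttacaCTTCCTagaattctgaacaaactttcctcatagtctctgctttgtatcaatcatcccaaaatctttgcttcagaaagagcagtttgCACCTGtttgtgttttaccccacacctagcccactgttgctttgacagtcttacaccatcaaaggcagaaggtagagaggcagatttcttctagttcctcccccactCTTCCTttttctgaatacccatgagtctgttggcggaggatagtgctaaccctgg
Cd3e, chr9:45009562-45009861, minus strand: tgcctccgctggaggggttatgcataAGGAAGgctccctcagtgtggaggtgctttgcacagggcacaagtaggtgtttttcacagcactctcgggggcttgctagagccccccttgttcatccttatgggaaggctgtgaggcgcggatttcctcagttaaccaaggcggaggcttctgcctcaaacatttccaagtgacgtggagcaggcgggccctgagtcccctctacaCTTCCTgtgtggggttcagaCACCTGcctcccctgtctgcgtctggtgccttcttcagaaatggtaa
Lat, chr7:126369519-126369818, minus strand: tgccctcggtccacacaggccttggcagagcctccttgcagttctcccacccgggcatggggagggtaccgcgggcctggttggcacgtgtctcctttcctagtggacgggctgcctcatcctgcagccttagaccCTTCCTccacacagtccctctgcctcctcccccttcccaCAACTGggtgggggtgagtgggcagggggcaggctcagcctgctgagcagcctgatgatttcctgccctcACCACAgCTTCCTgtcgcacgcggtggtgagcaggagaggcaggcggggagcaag
Cd5, chr19:10738925-10739224, minus strand: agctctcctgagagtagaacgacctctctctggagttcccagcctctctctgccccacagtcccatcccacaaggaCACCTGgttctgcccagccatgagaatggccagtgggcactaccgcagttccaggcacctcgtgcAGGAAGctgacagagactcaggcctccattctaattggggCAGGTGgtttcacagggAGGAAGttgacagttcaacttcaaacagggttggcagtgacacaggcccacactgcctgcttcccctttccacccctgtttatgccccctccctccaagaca

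The Cd3g window held 3 E-boxes and 1 GATA match and no ETS match. The Cd3d and Cd3e windows each held 1 E-box and 2 ETS matches. The Lat window held 1 E-box, 1 RUNX and 2 ETS matches, and the Cd5 window 2 E-boxes and 2 ETS matches. Of all 32851 mouse promoter windows of this length, 51.4% held an E-box, 16.8% a RUNX match, 7.4% a GATA match and 35.4% an ETS match. These matches describe letters only.

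In memory Th2 cells the genes of the receptor module moved in both directions when IL-33 was added. Of the 9 genes, 5 rose (Cd3d, Cd3g, Cd247, Cd4 and Lck), 2 fell (Lat and Cd5), and Cd3e and Zap70 did not pass the test, limma on log2(FPKM + 1) with an adjusted p below 0.05. Over all 10296 genes tested 42.1% passed, 16.3% higher and 25.7% lower, so a call in either direction was common in these libraries. Groups did not overlap for 6 genes with IL-33 higher and for 2 with IL-33 lower, beside 21.7% and 35% of all genes tested. The median log2 difference was 0.34 over the 9 genes and -0.11 over all genes tested. The summed FPKM of the module lay between 2055 and 2105 with IL-33 and between 1743 and 1834 with IL-2.

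**Figure D1:**
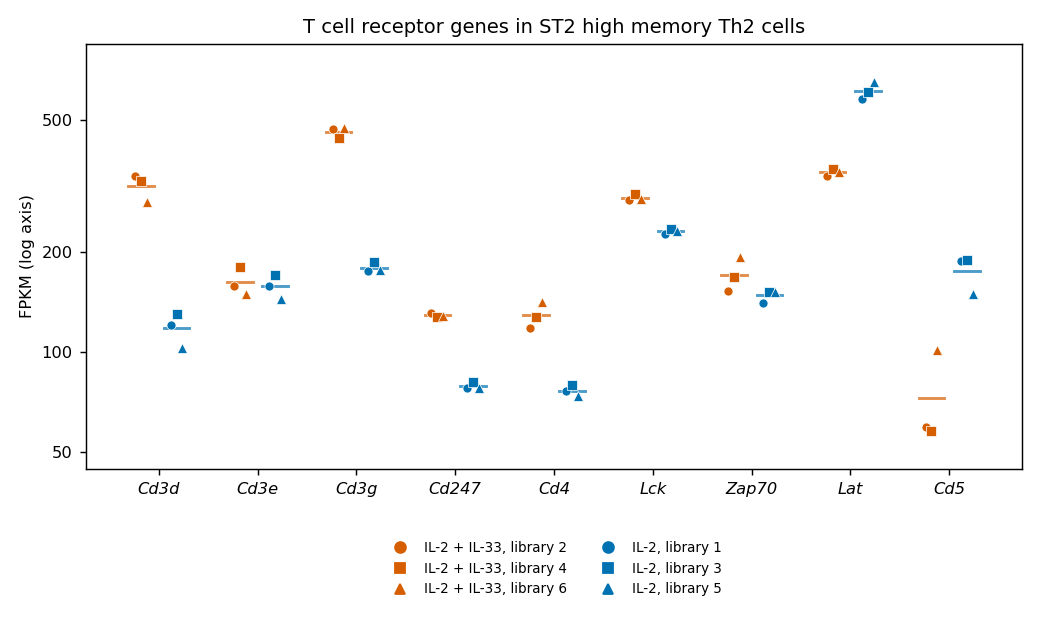
FPKM (log axis) of the 9 genes in the 3 IL-2 + IL-33 libraries (orange, left) and the 3 IL-2 libraries (blue, right) of memory Th2 cells; bars are group means and marker shapes are libraries. Cd3d and Cd3g sat above 280 FPKM in all IL-33 libraries and below 190 FPKM in all IL-2 libraries, while the Cd3e libraries of both groups overlapped and Lat and Cd5 were lower with IL-33.

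The CD3 chain genes parted ways. Cd3g, whose product pairs with CD3 epsilon, stood at 468, 440.5 and 471 FPKM with IL-33, against 175, 187 and 176 FPKM with IL-2. All IL-33 libraries lay above all IL-2 libraries, and Cd3g rose 2.56-fold (log2 difference 1.35, SE 0.0811, adjusted p = 5.58e-05, limma, n = 3 per group).

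Cd3d encodes the delta chain, which pairs with another copy of CD3 epsilon. It stood at 339, 327 and 283 FPKM with IL-33, against 121, 131 and 103 FPKM with IL-2. The groups were again apart, and Cd3d rose 2.68-fold (log2 difference 1.42, SE 0.12, adjusted p = 0.000257, limma). Cd3e, the gene of the chain shared by both pairs, stood at 158, 180.1 and 149.6 FPKM with IL-33 and at 158, 171 and 144 FPKM with IL-2. These groups overlapped. The log2 difference of Cd3e was 0.04, with a 95% interval of -0.21 to 0.29 (adjusted p = 0.778, limma).

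Set against Cd3e within each library, the other chain genes were higher with IL-33. The ratio of Cd3d to Cd3e was 1.95 ± 0.175 with IL-33 and 0.746 ± 0.0296 with IL-2 (SD, n = 3 each). The ratio of Cd3g to Cd3e was 2.85 ± 0.364 with IL-33 and 1.14 ± 0.0726 with IL-2. Neither ratio overlapped between groups (two-sided exact permutation p = 0.1 each, the smallest that 3 against 3 can give). The divergent neighbours kept close to their proportion, with a Cd3g to Cd3d ratio of 1.46 ± 0.174 with IL-33 and 1.53 ± 0.161 with IL-2 (exact permutation p = 0.5). Ratios do not move with the scaling of a library, and they were chosen after values had been seen.

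**Figure D2:**
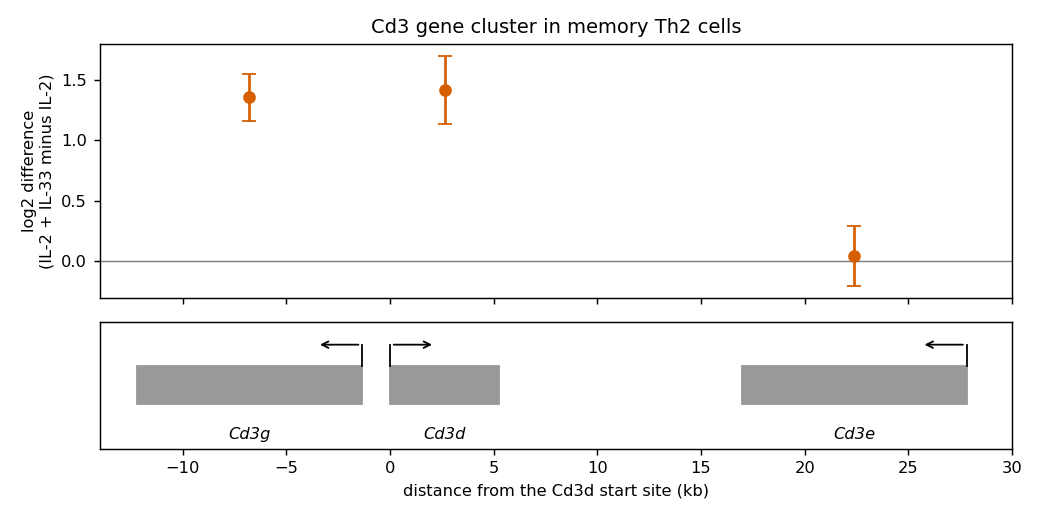
Log2 difference between IL-2 + IL-33 and IL-2 (upper panel, points with 95% intervals) of the 3 CD3 chain genes, drawn at the middle of each gene along the cluster, with distance from the Cd3d start in kb on the horizontal axis and arrows for the direction of transcription (lower panel). Cd3g and Cd3d lie at 1.35 and 1.42 and Cd3e at 0.04.

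Cd247, the gene of the zeta chain, which carries most of the phosphorylation motifs of the complex, stood at 131, 128 and 128 FPKM with IL-33, against 78.2, 81.6 and 78.1 FPKM with IL-2. The spread within each group was small, and Cd247 rose 1.63-fold (log2 difference 0.70, SE 0.0694, adjusted p = 0.000501, limma). At chr1:165788681-165871153 it overlaps Pou2f1 in the tables' coordinates, whereas no other gene of the module overlaps a listed gene.

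Cd4, the co-receptor gene that defines helper T cells, stood at 118, 127 and 142 FPKM with IL-33, against 76.3, 79.8 and 73.8 FPKM with IL-2. It rose 1.68-fold (log2 difference 0.74, SE 0.0913, adjusted p = 0.00116, limma). Lck, the kinase bound to the CD4 tail, stood at 288, 298 and 289 FPKM with IL-33, against 226, 234 and 232 FPKM with IL-2. Groups did not overlap for either gene. Lck rose 1.26-fold (log2 difference 0.34, SE 0.0755, adjusted p = 0.0123, limma), the smallest of the 7 called differences. Its call was lost without IL-2 library 1 (adjusted p = 0.0576), IL-2 library 3 (adjusted p = 0.0516) or IL-33 library 4 (adjusted p = 0.0525, limma).

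Zap70, the kinase that reads the phosphorylated chains, stood at 153, 168 and 193 FPKM with IL-33, against 141, 152 and 152 FPKM with IL-2. The groups were adjacent without overlapping. The log2 difference was 0.20, with a 95% interval of -0.05 to 0.45 (adjusted p = 0.158, limma). After median-of-ratios scaling of the libraries Zap70 did pass (log2 difference 0.30, adjusted p = 0.0327, limma).

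Lat, the adaptor on which the signalling complex assembles, went the other way. It stood at 340.1, 355 and 348 FPKM with IL-33, against 578, 608 and 650.1 FPKM with IL-2. The groups were far apart, and Lat fell to 0.568 of its IL-2 level (log2 difference -0.81, SE 0.0892, adjusted p = 0.000725, limma, chr7:126363828-126369534). In the IL-2 libraries Lat had the highest FPKM of the 9 genes, whereas in the IL-33 libraries Cd3g did. The ratio of Lat to Lck was 1.19 ± 0.0130 with IL-33 and 2.65 ± 0.131 with IL-2 (SD, n = 3 each, exact permutation p = 0.1).

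Cd5, the inhibitory receptor gene, stood at 59.8, 58.0 and 101 FPKM with IL-33, against 189, 189.5 and 149 FPKM with IL-2. Cd5 fell to 0.416 of its IL-2 level (log2 difference -1.30, SE 0.223, adjusted p = 0.00452, limma, chr19:10718143-10738974). Its IL-33 library 6 and IL-2 library 5 lay closest to each other. Relative depth was 0.74 in IL-33 library 6 and 0.67 in IL-2 library 5, below the other Th2 libraries, and the titles of this pair use another spelling of the ST2 label. Without both, the log2 difference of Cd5 was -1.67. The split of 5 genes higher and 2 lower held without both libraries and with a term for them.

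As shares of the module's summed FPKM, Lat took 16.7% ± 0.290 with IL-33 and 34.4% ± 2.2 with IL-2 (SD, n = 3 each). Cd3g took 22.1% ± 0.838 with IL-33 and 10.1% ± 0.0818 with IL-2, and Cd3d 15.2% ± 1.59 with IL-33 and 6.64% ± 0.694 with IL-2. Cd5 took 3.50% ± 1.14 with IL-33 and 9.88% ± 1.23 with IL-2. In each case the groups did not overlap (exact permutation p = 0.1, the smallest possible). The shares sum to the whole, so they are not independent.

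With all 12 mouse libraries in 1 model, whose spread includes the lung, the calls of Cd4 (adjusted p = 0.0678), Lck (0.499) and Lat (0.0664, limma) were lost and those of Cd3d, Cd3g, Cd247 and Cd5 remained. TPM, median-of-ratios and quantile scaling left the sign of all 9 differences as it was. Across all genes called, higher ones made up 38.8% as deposited, 55.6% after rescaling to TPM and 51.5% with median-of-ratios scaling.

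Beyond the module, 45 other genes of the receptor pathway were listed: kinases, phosphatases, adaptors, nucleotide exchange factors and transcription factors. With IL-33, 10 rose and 11 fell, which is 22.2% and 24.4% of the list beside 16.3% and 25.7% of all genes tested, with a median log2 difference of 0.00. After rescaling to TPM the split was 13 higher and 7 lower. Of the genes that rose, 5 are named by lowest adjusted p. Trat1, an adaptor that associates with the receptor itself, averaged 155 ± 9.14 FPKM with IL-33 and 33.6 ± 6.17 FPKM with IL-2 (SD, n = 3 each, log2 difference 2.19, adjusted p = 7.06e-05, limma). Lime1, an adaptor that binds Lck, averaged 139 ± 7.71 FPKM with IL-33 and 91.9 ± 7.94 FPKM with IL-2 (log2 0.60, adjusted p = 0.0031, limma). Sh2d1a, which encodes the adaptor SAP of the SLAM receptors, averaged 11.9 ± 0.476 FPKM with IL-33 and 2.19 ± 0.260 FPKM with IL-2 (log2 2.02).

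The kinase gene Tec averaged 19.1 ± 3.21 FPKM with IL-33 and 3.32 ± 1.02 FPKM with IL-2 (log2 2.23, adjusted p = 0.000366, limma). Dgka, whose product removes diacylglycerol, averaged 48.7 ± 1.48 FPKM with IL-33 and 26.3 ± 2.22 FPKM with IL-2 (log2 0.87). Of the genes that fell, 5 are named by lowest adjusted p. Ptpn6, the phosphatase SHP-1, averaged 26.2 ± 1.68 FPKM with IL-33 and 74.1 ± 23.1 FPKM with IL-2 (log2 -1.43, adjusted p = 0.00182, limma). Csk, the kinase that holds Lck inactive, averaged 49.1 ± 4.01 FPKM with IL-33 and 68.4 ± 1.09 FPKM with IL-2 (log2 -0.47). Lax1, an inhibitory membrane adaptor, averaged 1.42 ± 0.344 FPKM with IL-33 and 7.98 ± 1.65 FPKM with IL-2 (log2 -1.89).

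Nfatc1, a transcription factor switched on by calcium signalling, averaged 23.4 ± 3.97 FPKM with IL-33 and 55.7 ± 4.95 FPKM with IL-2 (log2 -1.22, adjusted p = 0.000663, limma). Txk, a Tec family kinase, was low at 0.879 ± 0.110 FPKM with IL-33 and 1.86 ± 0.162 FPKM with IL-2 (log2 -0.60). These 10 named genes were called under each alternative setting in which they were tested. Of 9 further T cell genes, 8 were tested, of which 5 rose and 3 fell. Icos, a costimulatory receptor gene, was the most abundant with IL-33, at 905, 833 and 522 FPKM, against 361, 371 and 194 FPKM with IL-2 (log2 1.3, adjusted p = 0.0145, limma).

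Markers of B cells and macrophages, and most markers of eosinophils, were low in the Th2 libraries. The summed FPKM of 6 B cell genes was 0.887 to 1.6 with IL-33 and 0.399 to 1.58 with IL-2, and that of 10 macrophage genes 5.04 to 9.09 with IL-33 and 7.46 to 11.3 with IL-2. The eosinophil granule genes Epx, Prg2 and Ear2 were listed at 0 in all 6 libraries. Of 7 eosinophil genes only Ccr3, the eotaxin receptor gene, was tested, and it rose. Ccr3 stood at 7.22, 5.68 and 7.95 FPKM with IL-33, against 1.22, 1.70 and 0.620 FPKM with IL-2 (log2 1.89, adjusted p = 0.00069, limma). Cd8a stood at 0.0699 FPKM in IL-33 library 6 and was listed at 0 in the others, although Cd8b1 stood at 10.9, 9.90 and 16.2 FPKM with IL-33, against 3.77, 3.72 and 5.64 FPKM with IL-2. Of 10 NK and cytotoxic genes 4 were tested. The NK receptor genes Klrk1 (0.315 FPKM on average with IL-33 and 13.4 FPKM with IL-2) and Klrd1 (0.087 FPKM with IL-33 and 2.11 FPKM with IL-2) fell, as did Nkg7 (2.08 FPKM with IL-33 and 6.77 FPKM with IL-2). The summed FPKM of the list, 1304 to 2102 with IL-33 and 824 to 1677 with IL-2, was almost all from the granzyme gene Gzmb, which was not called (adjusted p = 0.268, limma). Ncr1, another NK receptor gene, was listed at 0 in every library. Their part in the differences of the module was not tested.

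In the eosinophil libraries the module was taken as a measure of T cells, or other lymphocytes that share these genes, among the cultured cells. Other cells use some of these genes, and which cells the RNA came from was not tested. Every gene of the module was present, from 4.77 to 119 FPKM. All 9 genes were lower with amphiregulin in each of the 3 pairs of equally numbered libraries, yet none passed the test in the unpaired fit (adjusted p = 0.999 for each, lowest unadjusted p = 0.0692, limma). Of 12617 genes tested 0.206% were called, 14.9% were lower in 3 of 3 pairs, and 47.8% had a log2 difference below 0. The median log2 difference was -0.65 over the module and 0.02 over all genes tested. With the library number as a block none passed either (lowest adjusted p = 0.0644, limma), beside 1.12% of all genes called in that fit. Unadjusted p of the 9 genes there ran from 0.000882 to 0.0476 (limma). The share of all genes with such unadjusted p was not computed for the blocked fit.

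**Figure D3:**
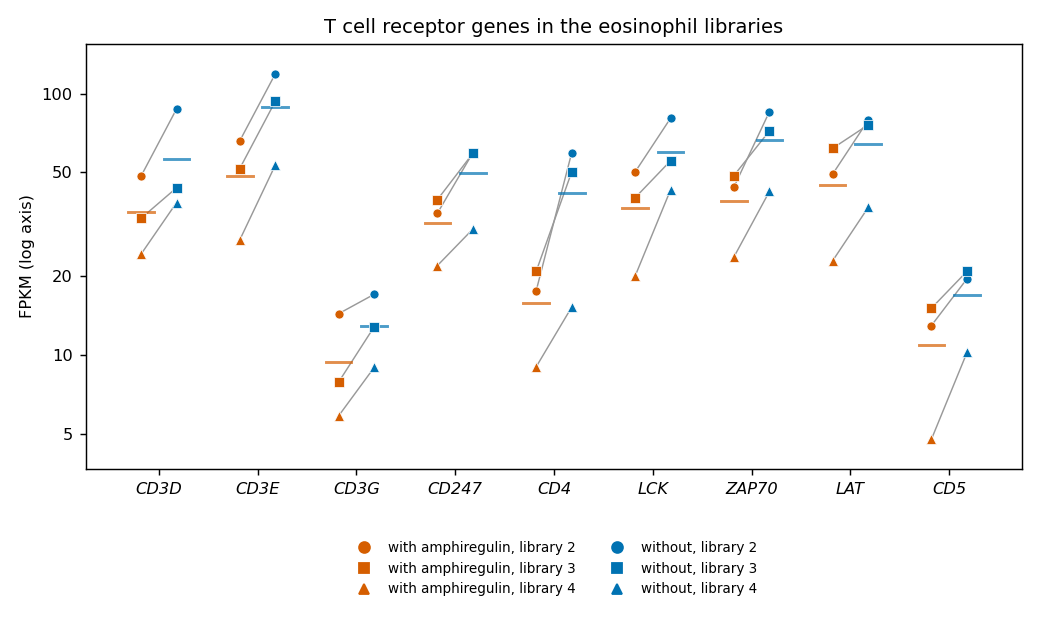
FPKM (log axis) of the 9 genes in the eosinophil libraries with amphiregulin (orange, left) and without it (blue, right); grey lines join libraries of equal number and bars are group means. Every line is lower at its amphiregulin end, while the groups overlap for every gene.

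CD3E stood at 65.9, 51.7 and 27.6 FPKM with amphiregulin, against 119, 93.5 and 53.3 FPKM without it. Library 4 was the lowest of either group, and the groups overlapped. The log2 difference was -0.87, with a 95% interval of -1.89 to 0.15 (block adjusted p = 0.0644, limma). CD3D stood at 48.3, 33.3 and 24.3 FPKM with amphiregulin and at 87.3, 43.6 and 38.3 FPKM without it. CD3G, the lowest chain gene, stood at 14.4, 7.89 and 5.86 FPKM with amphiregulin and at 17.1, 12.8 and 8.97 FPKM without it. Their log2 differences were -0.62 and -0.47 (block adjusted p = 0.203 and 0.433, limma).

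CD247 stood at 34.9, 39.3 and 22.0 FPKM with amphiregulin and at 59.5, 59.2 and 30.4 FPKM without it. LCK stood at 50.1, 39.9 and 20.01 FPKM with amphiregulin and at 80.5, 55.4 and 42.9 FPKM without it. ZAP70 stood at 43.8, 48.5 and 23.7 FPKM with amphiregulin and at 85.2, 71.96 and 42.2 FPKM without it. For the zeta chain and both kinases library 4 was the lowest of either group, and the log2 differences were -0.59, -0.73 and -0.77. LAT stood at 49.2, 61.8 and 22.9 FPKM with amphiregulin and at 79.1, 75.9 and 36.7 FPKM without it. CD5 stood at 13.0, 15.1 and 4.77 FPKM with amphiregulin and at 19.6, 20.9 and 10.2 FPKM without it. Their log2 differences were -0.54 and -0.65.

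CD4 had the lowest ratio between groups of the 9 genes. It stood at 17.6, 20.9 and 9.03 FPKM with amphiregulin, against 59.5, 50.2 and 15.3 FPKM without it, a log2 difference of -1.21 with a 95% interval of -2.54 to 0.13. The groups overlapped through library 4 of the cultures without amphiregulin. CD4 was called in the blocked fit without pair 4, which holds only pairs 2 and 3 (adjusted p = 5.40e-05, limma). Human monocytes and macrophages also carry CD4. Of 10 macrophage and monocyte genes none was called, and 8 had a log2 difference below 0. Their summed FPKM, led by LYZ, APOE and CD68, was 1175, 1642 and 318 with amphiregulin, and 3805, 3630.4 and 529 without it. The genes did not share a direction. The monocyte gene CD14 stood at 10.8, 12.5 and 0.852 FPKM with amphiregulin, against 246, 221 and 14.3 FPKM without it. CSF1R, a receptor gene of the same cells, stood at 63.4, 75.5 and 9.68 FPKM with amphiregulin, against 58.1, 54.6 and 6.53 FPKM without it, and C1QB too was higher with amphiregulin in each pair. The part of these cells in the CD4 difference was not tested.

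Within pairs, the median ratio over the 9 genes, with over without amphiregulin, was 0.586 in pair 2, 0.675 in pair 3 and 0.591 in pair 4. In bulk RNA, fewer cells of a type and less RNA per cell cannot be told apart. CCR3, the eotaxin receptor gene of eosinophils, was also lower with amphiregulin in each pair, but its libraries 4 were the highest of each group where those of CD3E were the lowest. CCR3 stood at 28.5, 42.2 and 90.2 FPKM with amphiregulin and at 53.4, 72.2 and 137 FPKM without it. Eosinophil genes did not share a direction: of 9 listed, 8 were tested and none was called, with 4 below 0 and 4 above it. The granule protein gene PRG2 stood at 138, 108 and 8.63 FPKM with amphiregulin and at 37.9, 29.9 and 26.2 FPKM without it. The ratio of CD3E to CCR3 was 2.31, 1.22 and 0.306 with amphiregulin and 2.23, 1.29 and 0.39 without it, and the groups overlapped (exact permutation p = 0.9). CD3E against the leukocyte gene PTPRC was 0.669, 0.786 and 0.196 with amphiregulin and 1.23, 0.853 and 0.450 without it, lower with amphiregulin in each pair (unpaired exact permutation p = 0.4).

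Of the 45 other pathway genes, none was called, 33 (73.3%) lay below 0, and the median log2 difference was -0.24. All 9 further T cell genes lay below 0, with summed FPKM of 187, 116 and 110.5 with amphiregulin, and 296, 166 and 158 without it. NK cells share CD247, LCK, ZAP70 and LAT with T cells. Of 10 NK and cytotoxic genes 8 were tested, none was called, and 6 lay below 0. Their summed FPKM was 1291, 1246 and 1476 with amphiregulin, and 1976, 1289 and 1972 without it, nearly all of it from TYROBP and FCER1G, which myeloid cells also express. PRF1, the perforin gene, stood at 9.67, 3.60 and 7.59 FPKM with amphiregulin and at 16.7, 7.53 and 17.9 FPKM without it. GZMB, a granzyme gene, stood at 2.80, 10.5 and 5.46 FPKM with amphiregulin and at 1.42, 0 and 0.958 FPKM without it. That of 9 eosinophil genes was 1316, 1536 and 3082 with amphiregulin, and 1756, 1408 and 5110.2 without it. Of 7 dendritic cell genes 5 were tested and none was called. Their summed FPKM was 611, 559 and 9.48 with amphiregulin, against 38.4, 22.4 and 1.93 without it, most of it from CCL17 with amphiregulin (478, 423 and 3.43 FPKM). Mast cells and platelets also use LAT, and the summed FPKM of 7 of their genes was 63.6, 248 and 59.6 with amphiregulin, and 72.04, 453 and 67.6 without it. The part of these cells in the results was not tested.

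T cell genes did not share an order over the library numbers. CD2, a T and NK cell adhesion gene, stood at 27.3, 2.63 and 11.5 FPKM with amphiregulin and at 37.9, 3.62 and 19.3 FPKM without it. CD8A stood at 17.2, 1.40 and 10.9 FPKM with amphiregulin and at 25.7, 2.09 and 14.3 FPKM without it. Libraries 3 were thus low in CD2 and CD8A in both groups, while their CD3E was 51.7 FPKM with amphiregulin and 93.5 FPKM without it. Against CD3E, CD2 was 0.0509 with amphiregulin and 0.0387 without it in libraries 3, and between 0.318 and 0.416 in libraries 2 and 4. CD8B and TCF7 were also lowest in libraries 3 of both groups. CD6, CD7, CD28, ICOS, CD96 and BCL11B were instead lowest in libraries 4 of both groups. The summed FPKM of 6 B cell genes was 12.7, 54.3 and 23.5 with amphiregulin, and 13.7, 54.1 and 31.6 without it. Which cells these differences came from was not tested.

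Rescaling the eosinophil tables to TPM moved the median of all genes to 0.20. The median of the module was then -0.48. Its distance from the median of all genes was -0.68, beside -0.67 as deposited, and no gene of the module changed sign. With array weights, which down-weight variable libraries, 8 of the 9 genes were called lower, all but CD3G (adjusted p from 0.00301 to 0.0364 for the 8, limma). Calls were common in that fit: of all 12617 genes tested, 1361 were called lower and 1870 higher. That fit gave library 2 without amphiregulin a weight of 19.2, against 0.187 to 4.49 for the other libraries, and its convergence tolerance was not reached.

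In whole lung the module was taken as a measure of the T cells of the tissue, together with other lymphocytes. No difference in the module between dGATA and wild-type animals was detected. None of the 9 genes passed the test, with log2 differences between -0.09 and 0.16 (lowest adjusted p = 0.959, lowest unadjusted p = 0.626, limma), and the groups overlapped for every gene. Of 13727 genes tested 0.0947% were called, and 939 had an unadjusted p below 0.05. The intervals were wide: for Cd3e the log2 difference was -0.06, with a 95% interval of -0.82 to 0.70.

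**Figure D4:**
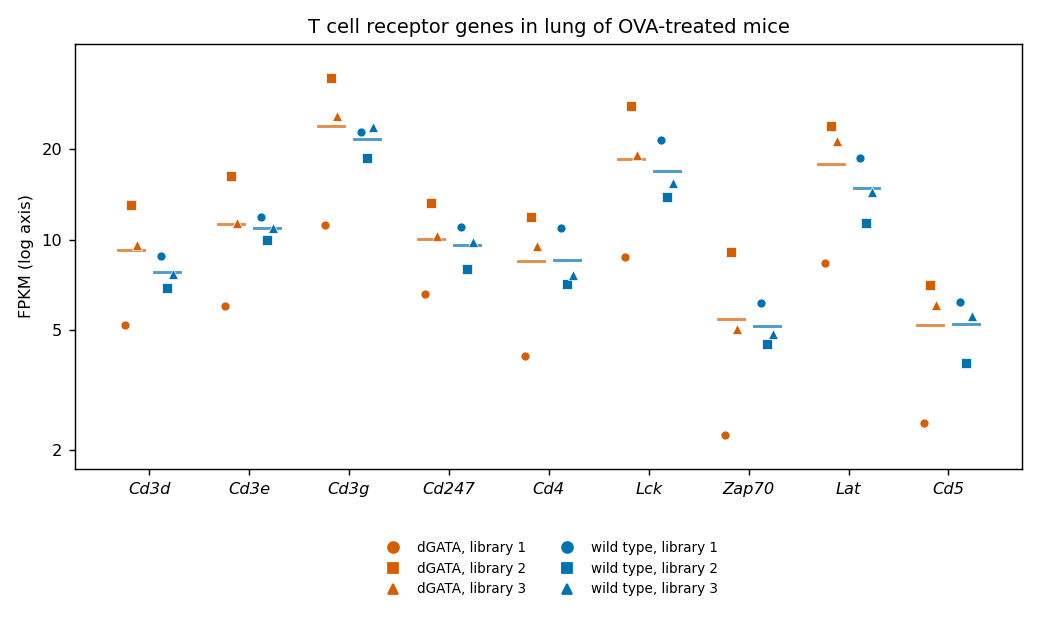
FPKM (log axis) of the 9 genes in lungs of OVA-treated dGATA (orange, left) and wild-type animals (blue, right); bars are group means and marker shapes are libraries. For every gene dGATA library 1 is the lowest of the 6 libraries and dGATA library 2 the highest, with the wild-type libraries in between.

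Cd3g stood at 11.2, 34.5 and 25.8 FPKM in dGATA lung and at 22.9, 18.7 and 23.7 FPKM in wild-type lung. Cd3e stood at 6.01, 16.4 and 11.4 FPKM in dGATA lung and at 11.95, 9.98 and 10.98 FPKM in wild-type lung. Cd3d stood at 5.19, 13.0 and 9.64 FPKM in dGATA lung and at 8.82, 6.89 and 7.72 FPKM in wild-type lung. For each chain gene, dGATA library 1 was lowest and dGATA library 2 highest. Cd4 stood at 4.10, 11.9 and 9.52 FPKM in dGATA lung and at 10.9, 7.14 and 7.62 FPKM in wild-type lung. Cd247 ran from 6.63 to 13.3 FPKM in dGATA lung and from 8.01 to 11.01 FPKM in wild-type lung. The remaining genes had the same outer libraries.

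Lck stood at 8.77, 27.8 and 19.2 FPKM in dGATA lung and at 21.6, 13.9 and 15.5 FPKM in wild-type lung. Zap70 stood at 2.24, 9.10 and 5.07 FPKM in dGATA lung and at 6.17, 4.49 and 4.84 FPKM in wild-type lung. For both kinase genes too, the dGATA lungs held the lowest and the highest library. Lat ran from 8.36 to 24.0 FPKM in dGATA lung and from 11.4 to 18.7 FPKM in wild-type lung, and Cd5 from 2.46 to 7.06 FPKM in dGATA lung and from 3.90 to 6.22 FPKM in wild-type lung. The summed FPKM of the module was 54.96, 157 and 118 in dGATA lung and 118, 84.3 and 100.2 in wild-type lung. Without dGATA library 1 all 9 log2 differences were above 0 (0.27 to 0.61), and without dGATA library 2 all 9 were below 0 (-0.47 to -0.10). The median log2 difference of all genes tested was -0.024 and -0.027 in these fits. The share of all genes on either side of 0 is not given for them. The genes of the module moved together, so these counts are not independent. None of the 9 genes passed the test in either fit (lowest adjusted p = 0.229 and 0.638, limma).

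The genes moved together between lungs. Each gene's share of the module's sum varied 1.18- to 1.42-fold over the 6 lungs, while its FPKM varied 2.01- to 4.05-fold. Ptprc, the pan-leukocyte gene, stood at 19.6, 37.4 and 30.5 FPKM in dGATA lung and at 41.7, 35.2 and 32.5 FPKM in wild-type lung, so dGATA library 1 was also the lowest in leukocyte RNA. The ratio of Cd3e to Ptprc was 0.306, 0.438 and 0.374 in dGATA lung and 0.286, 0.284 and 0.338 in wild-type lung (exact permutation p = 0.2). Summed B cell genes stood at 43.8, 114 and 146 FPKM in dGATA lung and at 181, 103 and 66.6 FPKM in wild-type lung. Some other lists had the same outer libraries as the module. NK and cytotoxic genes summed to 186, 583 and 322 FPKM in dGATA lung and 437, 379 and 401 FPKM in wild-type lung. Housekeeping genes summed to 5129, 8540 and 6508 FPKM in dGATA lung and 6754, 5628 and 6487 FPKM in wild-type lung. Epithelial and stromal genes were instead highest in dGATA library 1. They summed to 119535, 100881 and 97005 FPKM in dGATA lung and 80992, 92397 and 82736 FPKM in wild-type lung. The part of leukocyte content in the spread was not tested.

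Among the ratios computed in the lung, only that of Cd3d to Cd3e did not overlap between groups. The ratio of Cd3d to Cd3e was 0.835 ± 0.0348 in dGATA lung and 0.711 ± 0.0247 in wild-type lung (SD, n = 3 each) and did not overlap (exact permutation p = 0.1, the smallest possible). It was among several ratios computed after values had been seen. As a share of the module's sum, Cd3d took 8.63% ± 0.713 in dGATA lung and 7.78% ± 0.364 in wild-type lung. Those shares overlapped (exact permutation p = 0.2). The Cd3g to Cd3e ratio was 2.08 ± 0.203 in dGATA lung and 1.98 ± 0.154 in wild-type lung and overlapped (exact permutation p = 0.7). Of the 45 other pathway genes 44 were tested, none was called, and 79.5% lay below 0, beside 59.1% of all genes tested. Of 7 eosinophil genes 5 were tested and 2 were lower in dGATA lung, Prg2 and Ccr3. Prg2, a granule protein gene, averaged 0.428 FPKM in dGATA lung and 9.70 FPKM in wild-type lung (adjusted p = 0.0427, limma). Il5ra, Ear2 and Alox15 were not called. Alox15 still stood at 0.753, 2.68 and 4.23 FPKM in dGATA lung, against 33.7, 26.6 and 17.8 FPKM in wild-type lung, without overlap.

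**Figure D5:**
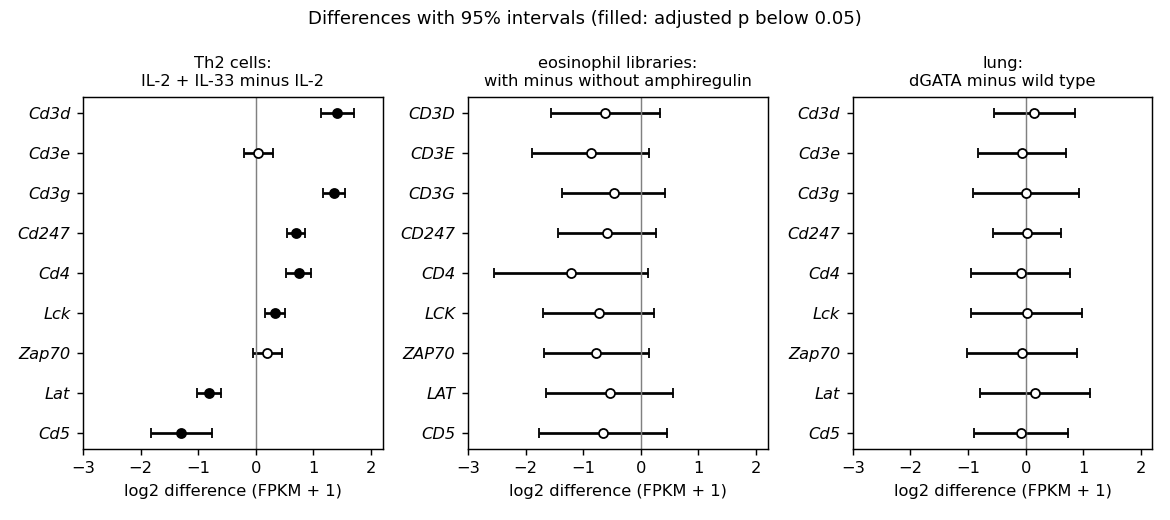
Log2 differences of the 9 genes with 95% intervals in memory Th2 cells (IL-2 + IL-33 minus IL-2), eosinophil libraries (with minus without amphiregulin) and lung (dGATA minus wild type); filled points have an adjusted p below 0.05 (limma). In the Th2 cells 5 genes lie above 0 and 2 below it with filled points, in the eosinophil libraries all 9 lie below 0 with open points, and in the lung all intervals span 0.

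Set side by side, mouse levels of all 9 genes were far higher in Th2 cells than in lung, and no Th2 library overlapped a lung library for any gene. The order of group means was Th2 with IL-33, Th2 with IL-2, then lung for 7 genes. For Lat and Cd5 the Th2 cells with IL-2 stood first. Neighbours in this order overlapped between the 2 lung groups for all 9 genes, and between the 2 Th2 groups for Cd3e. Among all symbols above 0, the genes of the module ranked between the percentiles 93.7 and 99.0 in Th2 cells with IL-33 and 93.5 and 99.2 with IL-2. In the eosinophil libraries they ranked between 65.9 and 91.3 with amphiregulin and between 72.7 and 95.6 without it, and in lung between 48.5 and 82.6 in dGATA and between 48.3 and 80.9 in wild-type animals. The human tables had CD3E as the highest chain gene and CD3G as the lowest. The lungs had Cd3g as the highest and Cd3d as the lowest.

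Genes whose log2(FPKM + 1) followed the mean of the CD3 chain genes most closely were looked up among 8805 genes over the 12 mouse libraries. They were Il27ra (Pearson r = 0.998), an IL-27 receptor gene, Def6 (0.998), Spn (0.998), which encodes the leukocyte sialoglycoprotein CD43, Sema4d (0.997) and Pgk1 (0.996), a glycolytic enzyme gene. These correlations rest largely on the distance between Th2 cells and lung. Within the 6 Th2 libraries r was 0.997 for Il27ra and 0.947 for Def6, and within the 6 lungs 0.953 and 0.965. Group means were not removed, so the Th2 values still include the distance between the IL-33 and IL-2 groups. Over the 6 eosinophil libraries and 7634 genes the closest were PGLYRP1 (0.991), a peptidoglycan recognition protein gene, CD6 (0.990), a T cell surface receptor gene related to CD5, FAM113B (0.990), FAIM3 (0.989) and DGKA (0.987). The libraries also differ in depth, and the part of depth in these correlations was not tested.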

How the data were processed

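RNA was sequenced from 18 libraries. The deposited values are FPKM per gene, made by the authors with Cufflinks 2.0.2, TopHat 1.3.2 and Bowtie 0.12.8, with mm10 named as the build, per the submitters' processing notes. For the human eosinophil tables the build was named in none of the sources. Total read counts were not used here, and the relative depth quoted comes from the FPKM step of low genes. FPKM were summed per symbol (240 mouse and 45 human symbols had several entries), and 138 human symbols were left out. A gene entered a comparison where 3 or more of its 6 libraries reached 1 FPKM, and log2(FPKM + 1) was tested with limma 3.58.1 (trend, R 4.3.3), 2-sided, with Benjamini-Hochberg adjustment over all genes tested and a threshold of 0.05. A fold change on this scale understates the change of low genes. Folds are ratios of mean FPKM, shares and ratios were tested with exact permutations, and scripts ran in Python 3.11.15 with pandas 2.3.3, numpy 2.4.6 and matplotlib 3.10.9.

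Members and lists were chosen with earlier results of these data known. Pathway genes named for the Th2 cells were the 5 of lowest adjusted p in each direction among those called in the pathway list. Equally numbered eosinophil libraries deviated together (r = 0.398, 0.356 and 0.669), so they were also fitted as pairs, although libraries 2 and 3 correlated across numbers as well (r = 0.28 and 0.308). Lung libraries did not (r = -0.286, -0.116 and -0.243). The fits were tested on simulated data. Alternatives covered the pseudocount, the filter on low values, the scaling, small RNA features, array weights, the samples in the fit, a library block and leaving out each library. The range of the named pathway genes over these alternatives was added after seeing the data.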

Additional observations from a re-analysis of the deposited data

How the results depend on the processing

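In the Th2 cells 5 genes of the module higher and 2 lower were called under each alternative run except as follows. With median-of-ratios scaling Zap70 was called as well, which made 6 higher. With 12 mouse libraries in 1 model 3 were called higher and 1 lower. Leaving out 1 library gave 4 to 5 higher and 2 to 2 lower. No paired analysis was possible in the Th2 cells because the groups share no replicate number. In the eosinophil libraries array weights called 8 genes lower. Leaving out 1 library called 0, the replicate block 0, and the block without 1 pair 0 to 1, the call being CD4 without pair 4. In the lung no gene of the module was called under any alternative, the library block included, but signs turned. There the log2 difference of Cd3g was -0.0059 with a pseudocount of 0.1, and with TPM it was -0.10, that of Cd247 -0.076 and that of Lck -0.089. With quantile normalization Zap70 stood at 0.0086 and Cd5 at 0.0027, and with array weights Cd3e at 0.048, Cd4 at 0.13 and Cd5 at 0.16. Over all genes called, the Th2 count of lower genes was 2651 as reported, 1636 with TPM and 4050 with array weights. The eosinophil counts were 4 higher and 22 lower as reported, 67 and 74 with the replicate block, 84 and 53 with the block on TPM, 1870 and 1361 with array weights, and 0 and 0 without small RNA features. The lung counts were 6 higher and 7 lower as reported, 558 and 878 with array weights, 19 and 74 with 12 libraries in 1 model, and 2 and 1 with the library block. The cause of these shifts was not tested.

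Leaving out 1 library turned these log2 differences: Th2 Cd3e (-0.036 to 0.0996) and in the lung Cd247 (-0.185 to 0.268), Cd3d (-0.113 to 0.477), Cd3e (-0.357 to 0.297), Cd3g (-0.324 to 0.447), Cd4 (-0.363 to 0.310), Cd5 (-0.318 to 0.293), Lat (-0.103 to 0.606), Lck (-0.331 to 0.449) and Zap70 (-0.465 to 0.354). It turned these differences in share of the module, in percentage points: Th2 Zap70 (-0.578 to 0.285), lung Cd247 (-0.973 to 0.824), Cd3g (-1.50 to 0.629) and Lck (-0.715 to 0.692), and eosinophil CD3D (-0.756 to 2.35), CD5 (-0.332 to 0.553), LCK (-1.04 to 0.936) and ZAP70 (-0.802 to 0.316). With 3 libraries a group, lung intervals span changes in both directions.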
